A study of Homo sapiens with 9 samples.

Results

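Ribosome biogenesis genes encode the factors that make ribosomes rather than the parts of the finished ribosome, and 60 of them were followed here across 9 exon arrays. The list was chosen by function, with no threshold on a measured value but with earlier gene-level results of these arrays known, so its counts are given as a description. Probe sets that the platform annotation ties to exactly 1 gene symbol were taken for each gene, and the gene level was the median of at least 3 of them after dim probe sets were left out. That gave a level for 58 of the 60 genes, of 16748 genes measured in all. NOP58 had no such probe set in the annotation used, and PPAN had 1, at -0.11 (log2) in the arrays labelled CPSF3 knockdown against control. Neither has a gene level here.

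The RNA came from the human line Flip-In-293, which is HEK293 (embryonic kidney) engineered to hold 1 integration site for transgenes. Every group had been infected with lentivirus and kept in culture for 10 days before total RNA was isolated: 3 samples carried a short hairpin RNA against CPSF3, the endonuclease that cuts pre-mRNA at the poly(A) site, 3 carried one against RBFOX2, a splicing regulator, and 3 carried a non-silencing hairpin and are called control. All are populations of 1 cell line, and the labels do not say how many hairpins were used per target. The replicates are biological in the titles but technical in the design text, and p-values therefore reflect only how these arrays vary. The series asks how factors of mRNA 3' end formation affect the use of internal exons.

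Ribosome production starts in the nucleolus, where RNA polymerase I transcribes the precursor of most ribosomal RNA. On that transcript a large particle, the small-subunit processome, assembles and folds it, while guide particles with small nucleolar RNAs (snoRNPs) mark and modify nucleotides. Separate sets of factors then build the large subunit in the nucleolus and finish the small subunit in the cytoplasm. In growing cells these genes are known to be regulated together, with MYC as the best known activator. MYC itself was not analysed here, since only 2 of its probe sets were kept.

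The targeted transcripts were examined first. CPSF3 was at 9.60, 9.27 and 9.27 (log2 level) on the arrays labelled CPSF3 knockdown and at 9.33, 9.29 and 9.80 in control. These overlap, and the difference of -0.095 ± 0.16 (SE of the fit, n = 3 arrays per group, as for every difference below) had an adjusted p of 0.752, so the label is not borne out by the transcript and is kept as a label throughout. RBFOX2 was at 8.95, 8.82 and 9.05 on the RBFOX2 knockdown arrays, all below the control arrays at 9.66, 9.54 and 9.38 (-0.58 ± 0.12, adjusted p = 0.0617). Adjusted p-values are from limma with Benjamini-Hochberg adjustment over all 16748 genes, and a gene is said to have risen or fallen where that value was under 0.05. No RBFOX2 array correlated best with its own group over gene levels. RBFOX2 replicates 1 and 2 were nearest to control replicate 3 (r = 0.965 and 0.979, against at most 0.964 and 0.972 within the group) and RBFOX2 replicate 3 to CPSF3 replicate 3 (r = 0.981, against 0.972). Control replicate 3 was nearest to RBFOX2 replicate 2, with at most 0.957 within its group, and the other 5 arrays were nearest to one of their own group. Of the markers listed for HEK293 cells, all 8 were measured, and 4 of them fell in the arrays labelled CPSF3 knockdown, among them VIM (-1.05 ± 0.12) and ENO2 (-1.33 ± 0.14). ENO2 also fell with RBFOX2 knockdown (-0.92 ± 0.14, adjusted p = 0.0255), the 1 such call there. Their summed linear signal lay between 5747 and 6241 in the arrays labelled CPSF3 knockdown, between 6793 and 7478 in the RBFOX2 knockdown arrays and between 8775 and 10700 in the control arrays. None of the 18 measured markers of fibroblasts, blood cells and endothelium was called in these comparisons with control. The part of these shifts in the results below was not tested, and in bulk RNA fewer cells with a transcript and less of it per cell cannot be told apart.

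In the arrays labelled CPSF3 knockdown most ribosome biogenesis genes stood above control. Of the 58 genes 30 rose and 0 fell, and 28 did not pass the test. Over all genes measured, 14.4% were called in either direction, 10% higher and 4.38% lower. At an unadjusted p under 0.05 the count was 43 genes, 42 of them higher, against 28.2% of all genes. The median difference of the 58 genes was 0.47 (1.39-fold), against 0.0087 over all genes, and 52 differences were above 0, against 51.6% of all genes. In 43 of the 58 genes every array labelled CPSF3 knockdown lay above every control array, as in 17.9% of all genes. Differences of at least 0.5 were seen in 25 of them, or 43.1%, against 8.56% of all genes.

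The rise rested on some arrays more than on others. The count of 30 fell to 16 without CPSF3 replicate 1, where 3.36% of all genes were called higher, and to 17 without control replicate 2, where 4.0% were. It was 20 without CPSF3 replicate 2 and 21 without control replicate 1, where 6.18% and 4.63% of all genes were called higher. All 16 and all 17 were among the 30, and 15 genes were called under each of the 18 other settings tried. Among the 9 arrays CPSF3 replicate 1 held the highest value for 43 of the 58 genes and control replicate 2 the lowest value for 31. The same counts were not made over all genes. Relative to each gene's mean over the 9 arrays, the median gene stood at 0.42, 0.24 and 0.11 on the arrays labelled CPSF3 knockdown, at -0.023, -0.16 and 0.010 on the RBFOX2 knockdown arrays and at -0.14, -0.34 and -0.13 on the control arrays. All 3 arrays labelled CPSF3 knockdown lie above all others in this median, and the RBFOX2 and control arrays overlap. On the same scale the median over all genes was also highest on CPSF3 replicate 1 (0.034) and lowest on control replicate 2 (-0.048).

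**Figure D1:**
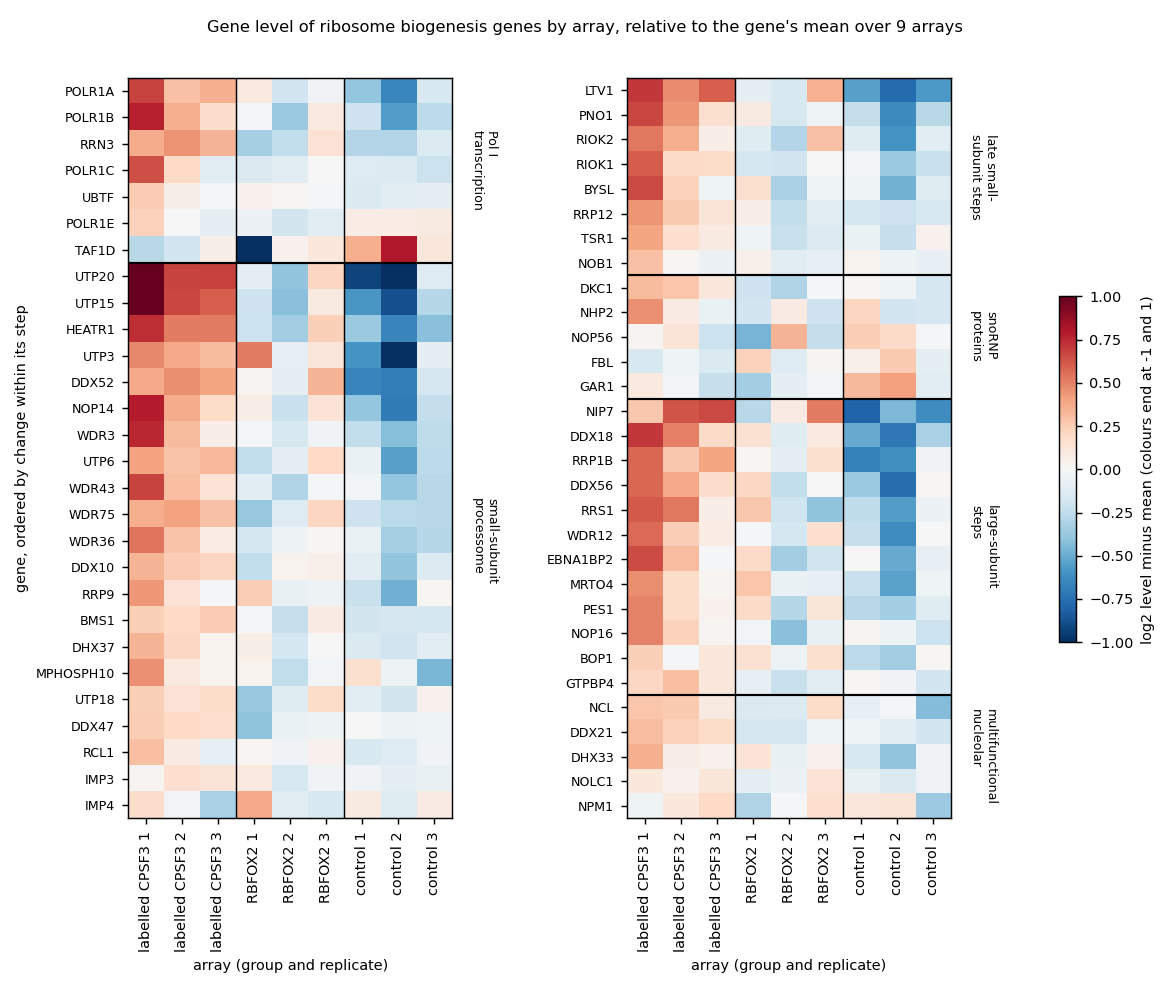
Gene level of each measured ribosome biogenesis gene (rows, ordered by change within a step) on each of the 9 arrays (columns), as the log2 difference from the gene's mean over the 9 arrays, with colours ending at -1 and 1. The column of CPSF3 replicate 1 is the darkest red, holding the highest value for 43 of the 58 genes, and that of control replicate 2 the darkest blue, with the lowest value for 31. These counts were not made over all genes.

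The 4 largest rises were those of UTP20, UTP15, LTV1 and NIP7. Their promoters are shown because genes that move together invite a look at the sequence before the start site, here the 250 bases upstream from RefSeq for GRCh38.p14. The letters searched were CACGTG, the E-box known to bind MYC with its partner MAX, which reads the same on both strands. Capitals mark it, and only the UTP20 window holds it, starting 10 bases before the gene start.
UTP20, chr12:101279855-101280104, plus strand: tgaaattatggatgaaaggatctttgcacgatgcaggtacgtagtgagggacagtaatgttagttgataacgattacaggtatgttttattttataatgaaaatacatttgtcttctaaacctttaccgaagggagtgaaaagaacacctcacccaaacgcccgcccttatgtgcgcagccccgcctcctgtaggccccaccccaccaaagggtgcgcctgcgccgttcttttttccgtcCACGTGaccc
UTP15, chr5:73565493-73565742, plus strand: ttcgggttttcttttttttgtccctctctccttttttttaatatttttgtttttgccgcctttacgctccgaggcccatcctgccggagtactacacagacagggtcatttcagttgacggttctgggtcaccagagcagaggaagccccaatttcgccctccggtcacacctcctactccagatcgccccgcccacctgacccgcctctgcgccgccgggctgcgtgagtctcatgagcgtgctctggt
LTV1, chr6:143843088-143843337, plus strand: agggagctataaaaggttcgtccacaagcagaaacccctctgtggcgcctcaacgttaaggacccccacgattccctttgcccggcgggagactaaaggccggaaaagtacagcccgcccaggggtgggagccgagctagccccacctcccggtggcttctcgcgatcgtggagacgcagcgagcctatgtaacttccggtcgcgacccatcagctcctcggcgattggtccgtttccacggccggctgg
NIP7, chr16:69339522-69339771, plus strand: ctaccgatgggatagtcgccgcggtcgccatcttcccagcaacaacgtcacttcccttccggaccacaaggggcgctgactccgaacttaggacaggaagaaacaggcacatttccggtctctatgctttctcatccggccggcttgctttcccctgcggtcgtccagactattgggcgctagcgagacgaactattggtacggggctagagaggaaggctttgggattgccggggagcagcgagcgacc
A promoter of the table matched 49 of the 60 listed genes, and 5 of the 49 (10.2%) held the motif, against 7.73% of the 27305 genes of the table. It was in 2 of the 25 matched genes that rose and in 3 of the other 24, which may include genes without a level. The 5 were UTP20, EBNA1BP2, DDX21, UTP18 and IMP4. The share is a description of these windows.

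Transcription by RNA polymerase I was represented by 7 genes. Of these, 3 (42.9%) rose and 0 fell, where 10% of all genes were called higher. The 3 were the genes of the catalytic core and of the factor that brings the enzyme to the promoter. POLR1A, the largest subunit, was at 10.26, 9.88 and 9.93 on the arrays labelled CPSF3 knockdown, 9.68, 9.39 and 9.55 with RBFOX2 knockdown and 9.19, 8.93 and 9.42 in control. All arrays labelled CPSF3 knockdown lay above all others, and the difference from control was 0.84 ± 0.15 (adjusted p = 0.00408). POLR1B, the other large subunit of the core, was at 9.72, 9.30 and 9.12 on the arrays labelled CPSF3 knockdown, against 8.93, 8.57 and 9.04 with RBFOX2 knockdown and 8.74, 8.39 and 8.68 in control. These arrays too did not overlap with the rest (0.78 ± 0.17, adjusted p = 0.00923). RRN3, which links the polymerase to promoter-bound factors, was at 10.01, 10.08 and 9.97, while the RBFOX2 knockdown arrays had 9.30, 9.39 and 9.78 and the control arrays 9.34, 9.34 and 9.50. It stood 0.63 ± 0.13 above control (adjusted p = 0.00801). RefSeq names 4 pseudogenes of RRN3, whose transcripts its probes may also bind. These 3 genes were called under each of the 18 other settings.

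The remaining polymerase I genes did not pass the test. POLR1C, a subunit shared with RNA polymerase III, was at 0.41 ± 0.16 (adjusted p = 0.102), the promoter-binding factor UBTF at 0.22 ± 0.11 and the polymerase I subunit POLR1E at -0.036 ± 0.11. TAF1D, a subunit of the promoter selectivity factor SL1 whose introns host small nucleolar RNAs, was the lowest of all 58 genes. Its levels were 9.54, 9.62 and 9.87 on the arrays labelled CPSF3 knockdown, 8.81, 9.86 and 9.92 with RBFOX2 knockdown and 10.18, 10.61 and 9.93 in control. Both knockdown groups lay below all control arrays, by -0.56 ± 0.25 (adjusted p = 0.154) and -0.71 ± 0.25 (adjusted p = 0.226) in the arrays labelled CPSF3 and RBFOX2 knockdown. The control arrays themselves lay between 9.93 and 10.61. Against control, TAF1D with the CPSF3 label passed the test under 2 of the 18 other settings, without RBFOX2 replicate 1 (adjusted p = 0.0381) and with array weights (adjusted p = 0.0345), and with RBFOX2 knockdown under 1, without control replicate 3 (-0.86, adjusted p = 0.0498).

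The small-subunit processome held the largest rises. Of its 21 genes 13 (61.9%) rose and 0 fell, where 10% of all genes were called higher. The median difference of the 21 was 0.52. The count of rises was 8 without CPSF3 replicate 1, where 3.36% of all genes were called higher. UTP20, a long scaffold protein of HEAT repeats, was at 9.67, 9.32 and 9.33 on the arrays labelled CPSF3 knockdown, 8.55, 8.25 and 8.86 with RBFOX2 knockdown and 7.72, 7.58 and 8.51 in control. The arrays labelled CPSF3 knockdown stand clear of the rest, and control replicate 3 lies in the range of the RBFOX2 arrays. The difference from control was 1.50 ± 0.22, or 2.84-fold (adjusted p = 0.00159). UTP3, known in yeast as Sas10, was at 9.15, 9.06 and 8.99 on the arrays labelled CPSF3 knockdown, 9.19, 8.59 and 8.78 with RBFOX2 knockdown and 8.09, 7.64 and 8.58 in control. Here the arrays labelled CPSF3 knockdown overlap with the RBFOX2 arrays and both lie above control. The difference between the arrays labelled CPSF3 knockdown and control came to 0.96 ± 0.20 (adjusted p = 0.00808). DDX52, a DEAD-box helicase, was at 10.36, 10.45 and 10.38 on the arrays labelled CPSF3 knockdown, against 10.01, 9.90 and 10.33 with RBFOX2 knockdown and 9.32, 9.29 and 9.82 in control. The 3 groups do not overlap, and the rise over control was 0.92 ± 0.15 (adjusted p = 0.00307). NOP14, another protein of the particle, was at 10.21, 9.80 and 9.61, against 9.50, 9.21 and 9.57 with RBFOX2 knockdown and 9.05, 8.73 and 9.19 in control. Its groups also stand in that order without overlap (0.88 ± 0.17, adjusted p = 0.00531).

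Genes of the UTP-A complex, the part of the processome that binds the nascent transcript first, rose, all 4 of those listed. UTP15 was at 10.00, 9.65 and 9.58 on the arrays labelled CPSF3 knockdown, 8.78, 8.57 and 9.07 with RBFOX2 knockdown and 8.40, 8.11 and 8.70 in control. All arrays labelled CPSF3 knockdown exceed all others by over 0.5, and the rise over control was 1.34 ± 0.17 (adjusted p = 0.00094). HEATR1, the human counterpart of yeast Utp10, was at 11.07, 10.84 and 10.85 on the arrays labelled CPSF3 knockdown, 10.12, 9.98 and 10.57 with RBFOX2 knockdown and 9.96, 9.67 and 9.91 in control. Its 3 groups do not overlap, with a difference of 1.07 ± 0.15 from control (adjusted p = 0.00147). WDR43 was at 11.00, 10.62 and 10.46 on the arrays labelled CPSF3 knockdown, at 10.21, 10.02 and 10.30 with RBFOX2 knockdown and at 10.29, 9.93 and 10.04 in control. WDR75 was at 10.41, 10.45 and 10.34, against 9.67, 9.92 and 10.26 with RBFOX2 knockdown and 9.84, 9.78 and 9.77 in control. In both genes the arrays labelled CPSF3 knockdown lay above all others, by 0.60 ± 0.15 and 0.60 ± 0.14 from control (adjusted p = 0.0171 and 0.0116). WDR43 lost its call without CPSF3 replicate 1 (0.45) and without control replicate 2 (0.53), and WDR75 without the filter on dim probe sets (0.60).

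In UTP-B, the neighbouring complex, 3 of the 6 genes read rose, where 10% of all genes were called higher. Of the 6, 4 are in the list of 60, and TBL3 and PWP2 are among the further pathway genes described below. WDR3 was at 10.03, 9.60 and 9.35 on the arrays labelled CPSF3 knockdown, at 9.26, 9.12 and 9.25 with RBFOX2 knockdown and at 9.04, 8.86 and 9.03 in control, so that the groups stand apart in this order (0.68 ± 0.15, adjusted p = 0.0103). UTP6 was at 9.26, 9.15 and 9.20, against 8.62, 8.76 and 9.06 with RBFOX2 knockdown and 8.79, 8.32 and 8.60 in control. The arrays labelled CPSF3 knockdown lie above the rest (0.63 ± 0.14, adjusted p = 0.0115), and without CPSF3 replicate 1 the adjusted p was 0.0512. WDR36 rose by 0.52 ± 0.13 (adjusted p = 0.0188). TBL3 and PWP2 were not called, at 0.037 ± 0.13 (adjusted p = 0.892) and 0.47 ± 0.17 (adjusted p = 0.0785). UTP18 was at 0.27 ± 0.14 (adjusted p = 0.217), with a 95% interval from -0.023 to 0.57.

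The proteins that join the U3 snoRNA to the processome did not pass the test. They form a small complex in which MPHOSPH10 was at 0.31 ± 0.16, IMP3 at 0.18 ± 0.11 and IMP4 at -0.077 ± 0.16, the lowest of the processome genes. IMP4 had levels of 10.17, 9.96 and 9.67 on the arrays labelled CPSF3 knockdown, 10.37, 9.88 and 9.84 with RBFOX2 knockdown and 10.08, 9.88 and 10.08 in control. These groups overlap throughout (adjusted p = 0.812 for labelled CPSF3 knockdown arrays against control), and the sign turned under 3 other settings. RRP9, the protein specific to the U3 particle, was at 0.41 ± 0.15 (adjusted p = 0.0937). The GTPase BMS1 rose by 0.41 ± 0.11 (adjusted p = 0.0272), although RefSeq names 21 pseudogenes of it, while its partner RCL1 was at 0.21 ± 0.12 and not called. Of the helicases, DDX10 rose by 0.48 ± 0.12 (adjusted p = 0.0196), and DHX37 and DDX47 were at 0.35 ± 0.12 and 0.23 ± 0.12 without passing. BMS1, DDX10 and WDR36 were called in 12, 13 and 15 of the 18 other settings.

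Among the 8 genes of the late steps of the small subunit 5 (62.5%) rose and 0 fell, where 10% of all genes were called higher. The median of the 8 was 0.51. The count of rises was 2 without CPSF3 replicate 1 or control replicate 2, and 3 without CPSF3 replicate 2, without control replicate 1 or with no filter. Under these settings 3.36% to 6.36% of all genes were called higher. LTV1, an assembly factor that must leave before the subunit matures, was at 10.10, 9.87 and 9.99 on the arrays labelled CPSF3 knockdown, 9.31, 9.25 and 9.75 with RBFOX2 knockdown and 8.86, 8.63 and 8.82 in control. Every array labelled CPSF3 knockdown exceeds every other array and all RBFOX2 arrays exceed all control arrays. Its rise of 1.22 ± 0.14 had the lowest adjusted p among the 58 genes (0.00059). PNO1, the partner of the nuclease NOB1, was at 10.12, 9.89 and 9.61 on the arrays labelled CPSF3 knockdown, against 9.54, 9.29 and 9.41 with RBFOX2 knockdown and 9.21, 8.81 and 9.17 in control. The groups stand apart in this order, and the difference from control was 0.81 ± 0.15 (adjusted p = 0.00488). NOB1, which cuts the precursor to leave the mature end of the small-subunit RNA, was the lowest of the 8, at 10.88, 10.60 and 10.53 on the arrays labelled CPSF3 knockdown, 10.64, 10.48 and 10.51 with RBFOX2 knockdown and 10.62, 10.54 and 10.51 in control. The groups overlap (0.12 ± 0.12, adjusted p = 0.582; 95% interval from -0.14 to 0.37).

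Both atypical kinases of these late steps rose, RIOK1 by 0.53 ± 0.14 (adjusted p = 0.0218) and RIOK2 by 0.60 ± 0.18 (adjusted p = 0.0373). RRP12, an export factor, rose by 0.46 ± 0.12 (adjusted p = 0.023). BYSL, another assembly factor of the small subunit, was at 0.50 ± 0.18 (adjusted p = 0.084) and the GTPase-like TSR1 at 0.31 ± 0.12 (adjusted p = 0.113). Of these, RIOK1 was called in 16 of the 18 other settings and RIOK2 and RRP12 in 13.

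Of the core proteins of the guide particles, 5 were measured. Of these 0 were called in limma, where 10% of all genes were called higher, and 1 had an unadjusted p under 0.05, and their median difference was -0.16. DKC1, the pseudouridine synthase of box H/ACA particles, was the highest, at 10.50, 10.46 and 10.30 on the arrays labelled CPSF3 knockdown, 9.97, 9.88 and 10.17 with RBFOX2 knockdown and 10.20, 10.14 and 10.02 in control. The arrays labelled CPSF3 knockdown lay above all others (0.30 ± 0.12, adjusted p = 0.109). GAR1, another H/ACA protein, was the lowest, at 8.37, 8.25 and 8.04 on the arrays labelled CPSF3 knockdown, 7.93, 8.18 and 8.24 with RBFOX2 knockdown and 8.60, 8.68 and 8.16 in control. Its groups overlap (-0.26 ± 0.15, adjusted p = 0.279), and the difference was 0.082 with no filter, 0.028 with the stricter filter and 0.017 with the mean of probe sets. Under 2 of the 18 other settings GAR1 passed the test as lower. NHP2, the remaining H/ACA protein, was at 0.21 ± 0.16. On the box C/D side, the methyltransferase fibrillarin (FBL) was at -0.19 ± 0.13 and NOP56 at -0.16 ± 0.18 (adjusted p = 0.382 and 0.607). The median of the 5 is the value of NOP56, whose probe sets had a median difference of 0.12. With FBL the interval ran from -0.46 to 0.088. A test of the guide-particle genes against the other steps was not run. The median gene stood at 0.096, 0.080 and -0.14 on the arrays labelled CPSF3 knockdown, at -0.21, -0.097 and -0.030 with RBFOX2 knockdown and at 0.21, 0.19 and -0.11 in control, relative to the mean over arrays, so the groups overlap.

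**Figure D2:**
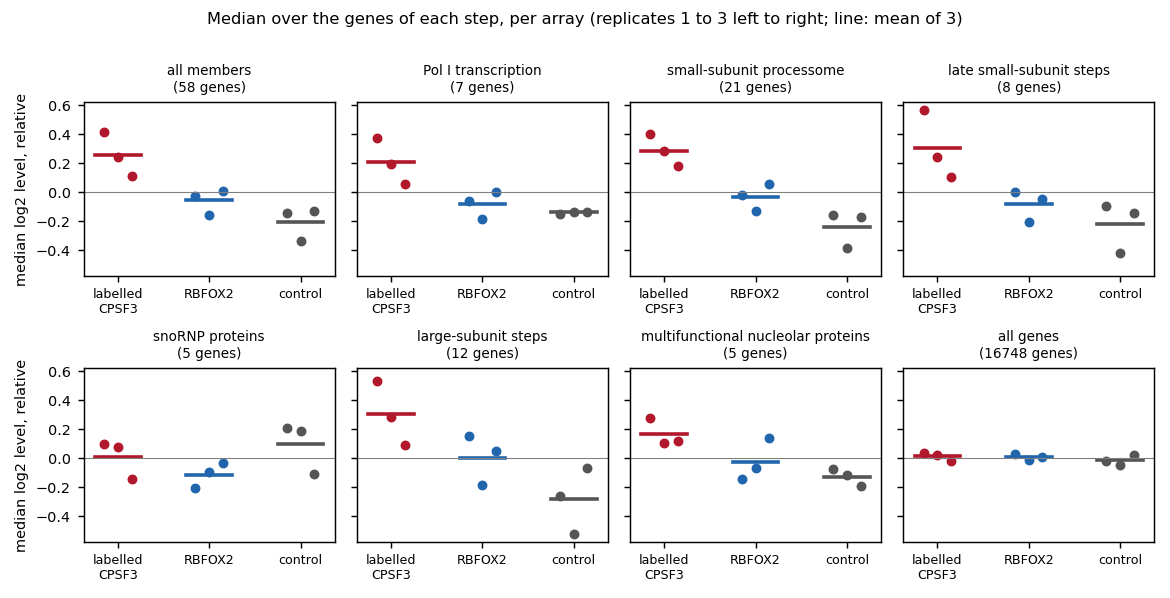
Median over the genes of each step on each array, as log2 level relative to the gene's mean over the 9 arrays; each point is 1 array, lines are group means, and the last panel holds all 16748 genes. The arrays labelled CPSF3 knockdown lie above the control arrays for all steps but that of the snoRNP proteins, where 0.096, 0.080 and -0.14 stand beside 0.21, 0.19 and -0.11 in control.

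Factors of the large subunit had the highest median, at 0.55. Of 12 measured genes 8 (66.7%) rose and 0 fell, where 10% of all genes were called higher. All 12 had an unadjusted p under 0.05, against 28.2% of all genes. The count of rises was 3 without CPSF3 replicate 1, control replicate 1 or control replicate 2, and 4 without CPSF3 replicate 2. Under these settings 3.36% to 6.18% of all genes were called higher. NIP7, a factor needed for pre-rRNA processing, was at 10.08, 10.44 and 10.47 on the arrays labelled CPSF3 knockdown, 9.53, 9.89 and 10.32 with RBFOX2 knockdown and 9.00, 9.36 and 9.18 in control. Both knockdown groups lie above all control arrays and overlap each other, and the rise over control with the CPSF3 label was 1.15 ± 0.18 (adjusted p = 0.00239). DDX18, a helicase, was at 10.03, 9.83 and 9.51 on the arrays labelled CPSF3 knockdown, 9.47, 9.20 and 9.41 with RBFOX2 knockdown and 8.81, 8.61 and 9.00 in control. The 3 groups stand apart, with a rise of 0.98 ± 0.15 over control (adjusted p = 0.00204). RefSeq names 6 pseudogenes of DDX18 and 3 of NIP7. RRP1B, a nucleolar protein that also binds a protein phosphatase, was at 10.61, 10.31 and 10.44 on the arrays labelled CPSF3 knockdown, against 10.06, 9.94 and 10.20 with RBFOX2 knockdown and 9.36, 9.43 and 10.01 in control. Control replicate 3 lies within the RBFOX2 range and below the arrays labelled CPSF3 knockdown (0.85 ± 0.16, adjusted p = 0.00528).

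DDX56, another helicase, was at 11.61, 11.42 and 11.21 on the arrays labelled CPSF3 knockdown, at 11.24, 10.79 and 11.04 with RBFOX2 knockdown and at 10.66, 10.28 and 11.05 in control. RRS1, which helps to load a small ribosomal RNA onto the large subunit in yeast, was at 10.20, 10.12 and 9.66, against 9.86, 9.40 and 9.19 with RBFOX2 knockdown and 9.34, 9.04 and 9.53 in control. In both genes the arrays labelled CPSF3 knockdown lie above control and overlap with the RBFOX2 arrays. The rises were 0.75 ± 0.18 (adjusted p = 0.0154) and 0.69 ± 0.19 (adjusted p = 0.0266). Both lost the call without CPSF3 replicate 1 (0.65 and 0.59), control replicate 1 (0.75 and 0.71) or control replicate 2 (0.56 each), and RRS1 also without CPSF3 replicate 2 (0.63).

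PES1, BOP1 and WDR12 form the PeBoW complex, which is needed to process the precursor of large-subunit RNA. WDR12 rose by 0.59 ± 0.17 (adjusted p = 0.0337) and PES1 by 0.49 ± 0.15 (adjusted p = 0.0445), each called in 12 of the 18 other settings, and BOP1 was at 0.30 ± 0.13 (adjusted p = 0.135). MRTO4, a stand-in for a stalk protein during assembly, rose by 0.49 ± 0.16 (adjusted p = 0.0491) and was called in 9 of the 18. EBNA1BP2 was at 0.51 ± 0.19 and NOP16 at 0.33 ± 0.14, both without passing. The GTPase GTPBP4 was the lowest of the 12, at 9.01, 9.11 and 8.91 on the arrays labelled CPSF3 knockdown, 8.72, 8.58 and 8.70 with RBFOX2 knockdown and 8.82, 8.77 and 8.62 in control. Its arrays labelled CPSF3 knockdown still lay above all others (0.28 ± 0.11, adjusted p = 0.116).

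Of the 5 nucleolar proteins with several roles 1 (20%) rose and 0 fell, where 10% of all genes were called higher. DDX21, a helicase that links transcription and pre-rRNA processing, rose by 0.36 ± 0.11 (adjusted p = 0.0358), a call kept in 7 of the 18 other settings. NCL, the abundant RNA-binding protein nucleolin, had the largest difference of the 5, at 11.37, 11.35 and 11.18 on the arrays labelled CPSF3 knockdown, 10.94, 10.95 and 11.27 with RBFOX2 knockdown and 11.00, 11.08 and 10.66 in control. Its arrays labelled CPSF3 knockdown lay above control (0.39 ± 0.14), and the adjusted p was 0.0773. NPM1, or nucleophosmin, had the smallest, at 12.10, 12.24 and 12.34 on the arrays labelled CPSF3 knockdown, 11.84, 12.12 and 12.30 with RBFOX2 knockdown and 12.25, 12.27 and 11.77 in control. The groups overlap (0.13 ± 0.15, adjusted p = 0.653), the sign turned without control replicate 3 (-0.033), and RefSeq names 50 pseudogenes whose transcripts its probes may bind. The snoRNP chaperone NOLC1 and the helicase DHX33 were at 0.17 ± 0.11 and 0.35 ± 0.13.

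**Figure D3:**
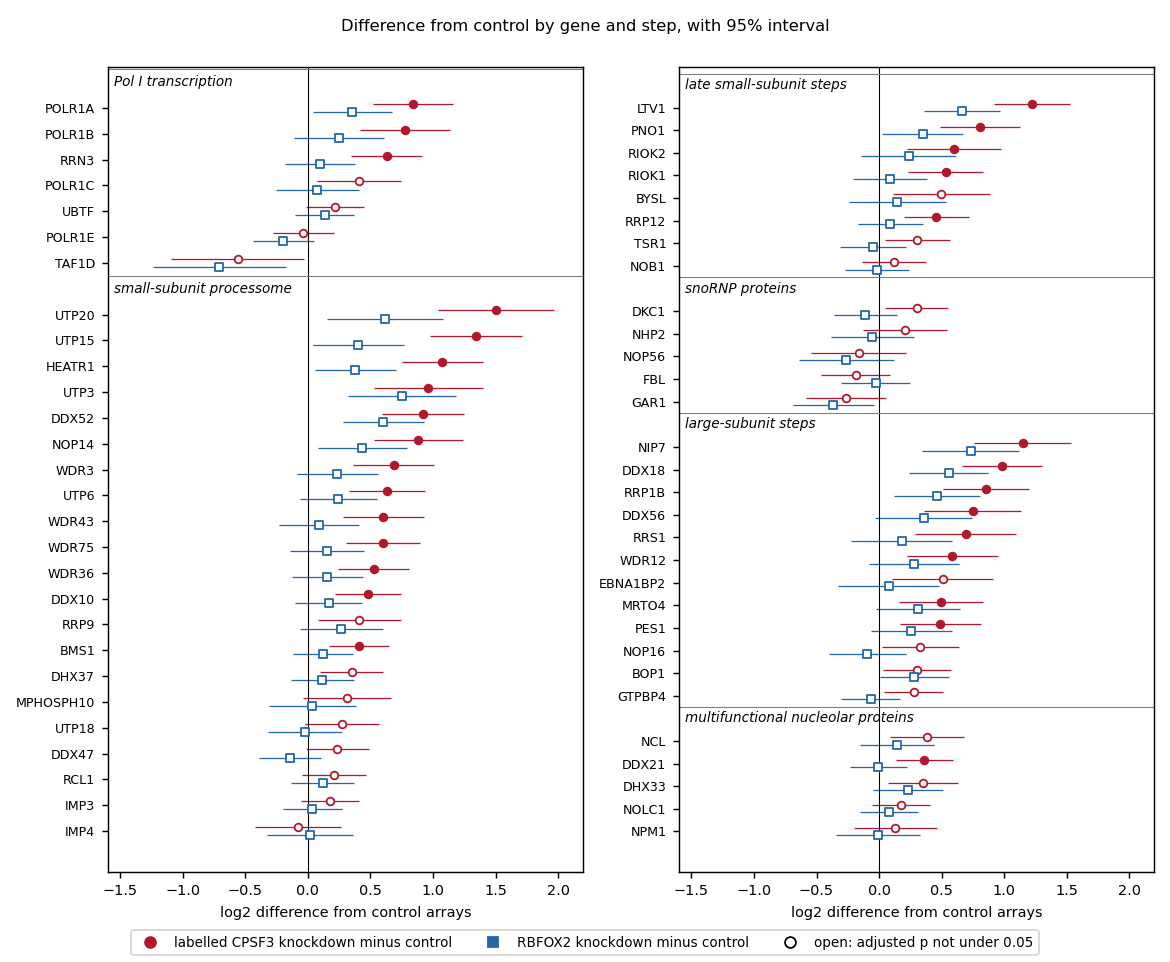
Log2 difference from control with its 95% interval for each gene by step, for the arrays labelled CPSF3 knockdown (circles) and the RBFOX2 knockdown arrays (squares), filled where the adjusted p was under 0.05. UTP20 (1.50) and UTP15 (1.34) are farthest to the right, TAF1D (-0.56) lies farthest to the left of the circles, and no square is filled.

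Across the 58 genes the correlation of the difference with the mean level was r = -0.21 (Spearman's rho = -0.17), and r was 0.092 across all 16748 genes. Genes share arrays and are not independent replicates, so these values describe the list.

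A further 96 genes of ribosome biogenesis that are outside the list were read from the same fit, and 93 of them had a level; EFL1, SBDS and MYC were not analysed here. In the arrays labelled CPSF3 knockdown 29 of the 93 (31.2%) rose and 0 fell, where 10% of all genes were called higher. At an unadjusted p under 0.05 there were 46 (49.5%), 3 of them lower, against 28.2% of all genes. The median difference of the 93 was 0.28. The count of calls was 15 without CPSF3 replicate 1 and 17 without control replicate 2. Without these arrays 5.76% and 7.19% of all genes were called in either direction. By step, 13 of 26 processome genes rose, 12 of 40 large-subunit genes, 2 of 8 polymerase I genes and 1 of 5 late small-subunit genes. Of the snoRNP genes 1 of 9 rose (11.1%, near the 10% of all genes). Of the regulators of rRNA synthesis 0 of 5 rose (1 reached an unadjusted p under 0.05). The largest rises were again in the processome: UTP4, a UTP-A protein, at 1.16 ± 0.18, NOL11, which works with UTP-A in vertebrates, at 1.14 ± 0.21, and DNTTIP2 at 1.01 ± 0.17 (adjusted p = 0.00215, 0.00507 and 0.00319). SDAD1, a large-subunit factor, followed at 0.96 ± 0.20 (adjusted p = 0.00803). UTP4 was at 11.83, 11.56 and 11.64 on the arrays labelled CPSF3 knockdown, at 11.00, 11.06 and 11.49 with RBFOX2 knockdown and at 10.21, 10.45 and 10.91 in control. As in UTP15 and HEATR1, its arrays labelled CPSF3 knockdown exceed all others.

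**Figure D4:**
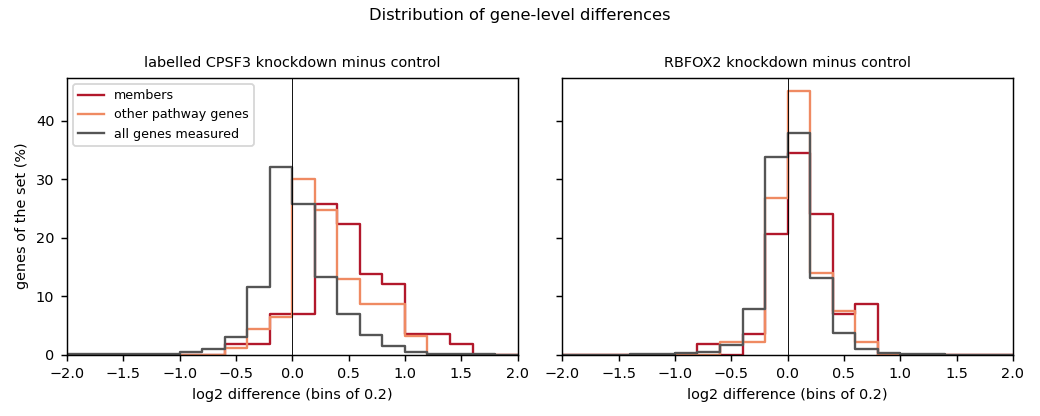
Share of genes (%) in bins of 0.2 of the log2 difference from control, for the 58 listed genes, the 93 other pathway genes and all 16748 genes, in the arrays labelled CPSF3 knockdown (left) and with RBFOX2 knockdown (right). On the left the listed genes have their median at 0.47 and the other pathway genes at 0.28, against 0.0087 for all genes; on the right the medians are 0.14, 0.077 and 0.025.

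With RBFOX2 knockdown 0 of the 58 genes were called against control in limma, where 0.173% of all genes were. At an unadjusted p under 0.05 there were 15, or 25.9%, of which 13 were higher, against 13.6% of all genes. The median difference was 0.14, against 0.025 over all genes. Every RBFOX2 array lay above every control array in 11 of the 58 genes (19.0%), as in 7.07% of all genes. Since none was called, the 5 largest differences were picked after their values were seen. They were UTP3 at 0.75 ± 0.20, NIP7 at 0.73 ± 0.18, TAF1D at -0.71 ± 0.25, LTV1 at 0.66 ± 0.14 and UTP20 at 0.62 ± 0.22. Their adjusted p-values were 0.143, 0.116, 0.226, 0.0762 and 0.227. For UTP3, NIP7 and LTV1 the RBFOX2 arrays lay above all control arrays, for TAF1D they lay below, and for UTP20 control replicate 3 overlapped with them.

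The count moved with control replicate 3. Without it 9 of the 58 genes were called, 7 higher and 2 lower, where 9.23% of all genes were called in either direction. UTP3 was then at 0.99 (adjusted p = 0.00285) and UTP20 at 0.91 (adjusted p = 0.00418). In the arrays, RBFOX2 replicates 1, 2 and 3 exceeded all controls for 31, 16 and 37 of the 58 genes, and CPSF3 replicates 1, 2 and 3 for 53, 47 and 45. Such counts for single arrays were not made over all genes, so they only describe the list. Both comparisons with control use the same 3 control arrays, so their values are not independent of each other. Of the 93 other pathway genes 0 were called with RBFOX2 knockdown, where 0.173% of all genes were. An unadjusted p under 0.05 was seen in 14 of the 93 (15.1%), near the 13.6% of all genes.

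The arrays labelled CPSF3 knockdown were also set against the RBFOX2 knockdown arrays, which needs no control array. The listed genes were mostly higher in the arrays labelled CPSF3 knockdown: 56 of 58 differences were above 0, against 50.1% of all genes, and the median was 0.35, against 0.00025. One gene was called, UTP15 at 0.94 ± 0.17 (adjusted p = 0.038), where 0.4% of all genes were called. That call was lost in 7 of the 18 other settings, among them leaving out any array labelled CPSF3 knockdown. At an unadjusted p under 0.05 there were 31 genes (53.4%), all higher, against 13.3% of all genes. In 28 genes (48.3%) every array labelled CPSF3 knockdown lay above every RBFOX2 array, as in 10.9% of all genes. The next largest differences were those of UTP20 (0.89 ± 0.22), HEATR1 (0.69 ± 0.15), LTV1 (0.56 ± 0.14) and POLR1B (0.53 ± 0.17), with adjusted p-values of 0.114, 0.0773, 0.118 and 0.198. Of the other pathway genes MAK16, a large-subunit factor, was called (0.58 ± 0.11, adjusted p = 0.0419), and it lost the call in 11 of the 18 other settings. Its levels were 10.06, 9.88 and 9.92 on the arrays labelled CPSF3 knockdown, 9.41, 9.25 and 9.48 with RBFOX2 knockdown and 9.33, 9.38 and 9.29 in control, so the RBFOX2 and control arrays overlap.

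The exon array reads each gene through many probe sets, and their single differences describe how a gene-level difference is spread over them. The listed genes had 1414 probe sets, of which 1275 were bright enough to be kept. In the arrays labelled CPSF3 knockdown 234 of the 1275 rose and 2 fell in the fit over all 692116 kept probe sets, together 18.5%, where 1.6% of all probe sets were called and 1.01% were called higher. Calls fell in 34 genes. Differences above 0 were seen at 1103 probe sets (86.5%), against 47.8% of all. The count of calls was unstable: it was 0 without CPSF3 replicate 1, without control replicate 1 or with no filter on dim probe sets, between 1 and 5 without CPSF3 replicate 2 or 3 or control replicate 2, and 383 without control replicate 3. With RBFOX2 knockdown 0 of the 1275 were called, where 0.000433% of all were, and 245 (19.2%) had an unadjusted p under 0.05, against 9.11% of all. Between the arrays labelled CPSF3 and RBFOX2 knockdown 0 were called, as over all probe sets (0%), and 442 (34.7%) had an unadjusted p under 0.05, against 5.77% of all.

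UTP20 rose at 44 of its 53 probe sets and stood above 0 at 52, with differences from -0.074 to 2.28. Its highest probe set was at 8.87, 9.17 and 9.77 on the arrays labelled CPSF3 knockdown and at 6.61, 6.52 and 7.84 on the control arrays, which do not overlap. The control values of 6.61 and 6.52 lie below the filter on dim probe sets (6.97), which was applied to the mean over the 9 arrays. UTP15 rose at 18 of 21 probe sets, with differences from -0.057 to 2.01. For LTV1 it was 10 of 12, from -0.33 to 1.82. POLR1A was above 0 at all 41 probe sets and rose at 21. HEATR1 rose at 35 of 56, with 54 above 0, and DDX18 at 15 of 32, with a highest difference of 2.43. In these 6 genes, all of which rose at the gene level, the differences were above 0 at nearly all probe sets. The gene level is the median of these same probe sets, so most of them lying above 0 follows from that choice.

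Some genes that had not risen at the gene level were read in the same way. All 13 FBL probe sets lay below 0, from -0.28 to -0.021, with 0 called. NOP56 spread on both sides, with 15 of 27 probe sets above 0 and differences from -0.76 to 0.90. TAF1D was below 0 at 22 of its 23 probe sets, and 1 of them fell. That probe set was at 10.17, 9.74 and 10.03 on the arrays labelled CPSF3 knockdown, at 9.23, 10.77 and 9.85 with RBFOX2 knockdown and at 11.62, 11.50 and 11.11 in control, so that both knockdown groups lie below control. DDX47 held the other fall, at a probe set with 9.20, 9.18 and 9.14 on the arrays labelled CPSF3 knockdown, 8.68, 9.55 and 9.29 with RBFOX2 knockdown and 10.75, 10.84 and 9.86 in control. Of its 17 probe sets 13 stood above 0, the highest at 0.27, the lowest was at -1.51 without passing the test, and the gene level of DDX47 was not called. The order of probe sets along these genes was not used here.

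**Figure D5:**
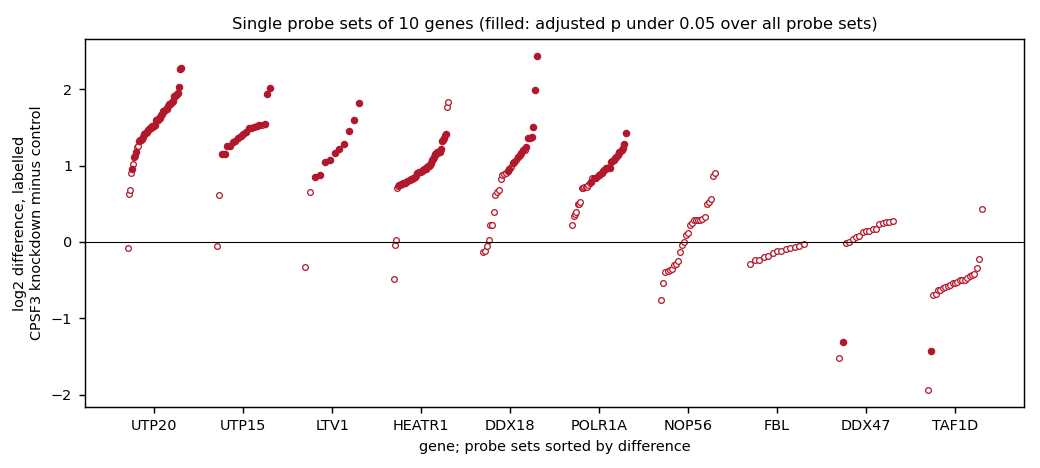
Log2 difference between the arrays labelled CPSF3 knockdown and control at each kept probe set of 10 genes, sorted within a gene and filled where the adjusted p over all probe sets was under 0.05. UTP20 (44 of 53 filled) and UTP15 (18 of 21) lie almost wholly above 0, FBL has all 13 probe sets just below 0, and single filled points lie below 0 in DDX47 and TAF1D.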

How the data were processed

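The authors deposited log2 signals for 9 Affymetrix Human Exon 1.0 ST arrays, with 1 value per probe set and array. Per the submitters' processing notes they were made with Affymetrix Power Tools and RMA (tool versions not given in the sources used here) on genome build hg18. Since RMA gives the probe signals of all arrays 1 distribution before it combines them into probe set values, it hides any shift common to most transcripts. The medians of the deposited probe set values lay between 6.965 and 6.998. Depth has no meaning for arrays, and their number, 3 per group, limits the precision.

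Analyses used R 4.3.3, limma 3.58.1 and version 1.17.8 of data.table. Of 1384231 probe sets 354600 had 1 gene symbol and 14898 had several and stayed unnamed. RefSeq held 16426 of the 19497 symbols as current ones, and 2950 were updated through a synonym. Probe sets with a mean over the 9 arrays at or above the median (6.97) were kept, and the gene level is the median of at least 3. Gene levels (16748) and kept probe sets (692116) were fitted separately (lmFit, eBayes; all 3 groups in 1 model, 2-sided) with Benjamini-Hochberg adjustment at 0.05 over all features. With 3 arrays against 3 the smallest exact permutation p is 0.1, and no such test was used.

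The members and the lists of further pathway genes and markers were chosen with earlier results of these data known. Values are given by rule for the 20 largest called members per comparison, for the highest and lowest member of each of 6 steps, and for up to 4 highest and 4 lowest called further genes. The 5 RBFOX2 knockdown genes were picked after their values were seen. Same-numbered arrays were compared: their deviations from the group means correlated at 0.33, 0.26 and -0.14 (labelled CPSF3 knockdown with control), at -0.083, -0.040 and -0.017 (RBFOX2 with control) and at 0.081, 0.039 and 0.22 (labelled CPSF3 knockdown with RBFOX2), so the numbers were not taken to pair them. The 18 other settings were no filter, a stricter filter (upper quartile, 8.36), quantile normalisation, centring, the mean of probe sets, the replicate block, a fit of the compared groups alone, robust fitting with a variance trend, array weights, and leaving out each array.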

Additional observations from a re-analysis of the deposited data

How the results depend on the processing

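The replicate block, for numbers that were not taken to pair the arrays, gave 32 members called with the CPSF3 label against control (15.3% of all genes). It gave 2 for RBFOX2 knockdown against control (0.818%) and 1 between the knockdown labels (0.251%). Against control, the 30 members called for the arrays labelled CPSF3 knockdown were between 23 and 38 under the settings that keep all arrays. Those settings called 9.2% to 28.8% of all genes. When 1 array was left out the count was 16 (without CPSF3 replicate 1, 5.76% of all genes) to 33 (without control replicate 3, 20.5%). The median difference over all measured members, called or not, stayed between 0.36 and 0.56. That of RBFOX2 knockdown against control stayed between 0.09 and 0.18, and that of the knockdown labels against each other between 0.26 and 0.39. All stayed within 1 SD of the members' median between replicate arrays (0.19, 0.13 and 0.17). For RBFOX2 knockdown the count of 0 became 1 with the stricter filter (0.266% of all genes called) and 8 with array weights (9.03%). It was 0 to 9 when 1 array was left out (0.0119% to 9.23% of all genes). Between the knockdown labels the count of 1 became 0 with no filter (0.0968% of all genes) and 2 with centred arrays (0.609%) or the mean of probe sets (0.836%). It was 3 with only the compared groups (0.89%) and 11 with array weights (3.59%). Leaving out 1 array gave 0 to 4 (0.0836% to 0.866% of all genes). The other pathway genes called numbered 15 to 35 (arrays labelled CPSF3 knockdown) and 0 to 8 (RBFOX2 knockdown) when 1 array was left out. With array weights 6 of the 93 were called in the RBFOX2 comparison, where 9.03% of all genes were. Probe sets of the members called numbered 0 with no filter, 361 with a variance trend and robust fitting, 384 with array weights and 0 to 383 when 1 array was left out. The sign of GAR1 turned with no filter (0.082), the stricter filter (0.028) and the mean of probe sets (0.017), that of IMP4 with the stricter filter (0.00076) and the mean (0.063) and between -0.20 and 0.055 when 1 array was left out, and that of NPM1 with the stricter filter (-0.025) and between -0.033 and 0.21 when 1 array was left out. GAR1 passed the test as lower under 2 of the 18 other settings. Of the 30 called members 15 kept their call under all 18 other settings, and of the 26 called results among the genes named for the largest differences 19 did. The cause of these moves was not tested. No array was excluded from the main results.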
